A study of Homo sapiens with 32 samples.

Results

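The genes described here are 10 markers of epithelial junctions and of the epithelial to mesenchymal transition (EMT): CDH1, EPCAM, CLDN4, ESRP1, ESRP2, CDH2, VIM, FN1, ZEB1 and SNAI2. They were taken by symbol, whatever their values, from a deposited expression table of 35238 genes, in which all 10 were found. All 10 also passed the filter on low values, a CPM (reads per 1000000 reads counted) above 1 in at least 2 of 32 libraries. ESRP1, CDH2 and SNAI2 were below that level in SNGM cells and passed only through the other lines, so that their difference from SNGM was partly set by the filter.

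RNA of 4 endometrial cancer cell lines was sequenced after 24 h on vehicle, paclitaxel, SM08502 or both drugs, with 2 libraries in each of the 16 groups. The labels call Ishikawa CTNNB1-wildtype and the other lines, Ishikawa-S33Y, SNGM and HEC265, CTNNB1-mutated, CTNNB1 being the gene of beta-catenin. Vehicle was 0.1% DMSO. Ishikawa received 11 nM paclitaxel and 80 nM SM08502, and Ishikawa-S33Y received 6 and 85 nM. SNGM received 11.7 nM paclitaxel and 350.7 nM SM08502, and HEC265 received 5.6 and 149 nM. Each dose was the IC50 for viability of that line, and the combination held both. Paclitaxel blocks mitosis by binding microtubules. SM08502 is an inhibitor of CLK (CDC-like kinases), enzymes that act on splicing factors. The dose of each drug differed between lines, and RNA input was 350 ng for Ishikawa against 500 ng for the others, so dose, input and line cannot be told apart. The labels do not say whether Ishikawa-S33Y is a clone or a pool, nor whether duplicates came from separate cultures. The p-values below therefore measure the spread between these libraries, which may be technical.

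Depth was 13.03 to 34.1 M (M, 1000000 reads) in 30 libraries, and 2.99 and 1.61 M in the second combination library of Ishikawa-S33Y and of SNGM. A count of 3 reads, used as the floor, was worth 0.0879 to 0.230 CPM in the deeper libraries and 1.00 and 1.87 CPM in those shallow ones. Libraries also differed in a length score, which takes 24 genes of long transcripts and 78 ribosomal protein genes and subtracts the second mean log2(CPM + 1) from the first. It ran from -2.92 to -1.33 in Ishikawa, -1.71 to -1.002 in Ishikawa-S33Y, -0.42 to 0.36 in SNGM and -0.86 to -0.28 in HEC265. All 6 epithelial markers checked (KRT8, KRT18, KRT19, KRT7, PAX8 and MUC1) had a median above 1 CPM in every line, with a summed level of 596 to 3003 CPM over the libraries. The 6 stromal markers summed to 0.882 to 12.04 CPM, 4 endothelial markers to 1.19 to 10.6 CPM and 5 leukocyte markers to 6.41 to 51.8 CPM. Within these sums CD68 ran from 3.30 to 50.4 CPM, PTPRC stayed at or below 2.38 CPM, and LUM was at 0 in all HEC265 libraries.

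Epithelial cells are held together by adherens junctions, built on the cadherin encoded by CDH1 and linked inside the cell by catenins, and by tight junctions sealed by claudins. In EMT, transcription factors such as ZEB1 and SNAI2 repress CDH1 through E-boxes, cells switch towards N-cadherin, vimentin and fibronectin, and loss of ESRP1 and ESRP2 changes splicing of many transcripts. Endometrial carcinoma is an epithelial tumour in which expression of both kinds of marker is common.

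Promoter windows from RefSeq (GRCh38.p14) were available for 5 of the 10 genes. The 250 bases before the start site are printed for CLDN4 and CDH2, 2 genes that SM08502 lowered, for VIM, which differed between all pairs of lines, and for ZEB1, whose product binds E-boxes. They lie at chr7:73830746-73830995 on the plus strand for CLDN4, chr18:28177131-28177380 on the minus strand for CDH2, chr10:17227991-17228240 on the plus strand for VIM, and chr10:31318167-31318416 on the plus strand for ZEB1. All are 5′ to 3′ on the strand of the gene. Capitals mark the E-box searched for (CACCTG or its reverse complement CAGGTG) and the GC box (GGGCGG or CCGCCC). The 2 motifs share no bases in these windows.
CLDN4: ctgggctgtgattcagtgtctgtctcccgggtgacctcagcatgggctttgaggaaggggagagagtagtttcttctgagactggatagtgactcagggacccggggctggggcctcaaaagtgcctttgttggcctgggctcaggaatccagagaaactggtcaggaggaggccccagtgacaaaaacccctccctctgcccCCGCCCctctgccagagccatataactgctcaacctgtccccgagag
CDH2: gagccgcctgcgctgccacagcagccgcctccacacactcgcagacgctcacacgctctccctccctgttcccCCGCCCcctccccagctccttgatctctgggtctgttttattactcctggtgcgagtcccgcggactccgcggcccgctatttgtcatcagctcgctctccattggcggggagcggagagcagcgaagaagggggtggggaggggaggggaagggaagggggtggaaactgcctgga
VIM: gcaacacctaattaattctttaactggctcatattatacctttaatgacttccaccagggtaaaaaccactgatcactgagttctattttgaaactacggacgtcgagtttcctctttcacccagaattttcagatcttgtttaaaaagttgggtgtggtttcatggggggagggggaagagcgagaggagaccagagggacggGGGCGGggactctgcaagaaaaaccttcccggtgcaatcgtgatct
ZEB1: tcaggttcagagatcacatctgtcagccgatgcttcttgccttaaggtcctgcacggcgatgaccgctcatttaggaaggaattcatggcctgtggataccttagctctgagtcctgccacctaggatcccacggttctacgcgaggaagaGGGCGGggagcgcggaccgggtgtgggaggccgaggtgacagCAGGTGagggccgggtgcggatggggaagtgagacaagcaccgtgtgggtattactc
Each window held 1 GC box, and ZEB1 alone among the printed windows held an E-box, starting 57 bases before the start site. Over 35116 windows of the same length, 17.5% held the E-box and 42.6% the GC box. ZEB1 has 7 start sites in that table, and 2 of its windows held an E-box. These matches describe letters only.

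The first comparison asked how the 10 genes stood in each line on vehicle. The lines carried different mixtures of epithelial and mesenchymal markers. HEC265 held the highest CDH1 and almost no VIM. SNGM held the highest VIM and ZEB1, kept CDH1, EPCAM and CLDN4, and had hardly a read of ESRP1, CDH2 or SNAI2. Ishikawa and Ishikawa-S33Y expressed both CDH1 and CDH2 together with VIM and FN1. Of 60 differences (10 genes in 6 pairs of lines), 50 passed an adjusted p of 0.05 in limma's moderated test (adjusted over all 17011 genes tested). By pair, 8 of 10 passed for Ishikawa-S33Y against Ishikawa, where 48.3% of all genes did, 9 for SNGM against Ishikawa (66.8%) and 7 for HEC265 against Ishikawa (63.3%). For SNGM against Ishikawa-S33Y 9 passed (60.8%), for HEC265 against Ishikawa-S33Y 9 (58.0%), and for HEC265 against SNGM 8 (54.9%). Many genes of the table differed between the lines, and the count of the 10 is to be read against that. The median difference of all genes was -0.17 for HEC265 against Ishikawa, -0.13 for SNGM against Ishikawa, and closer to 0 in the other pairs.

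**Figure D1:**
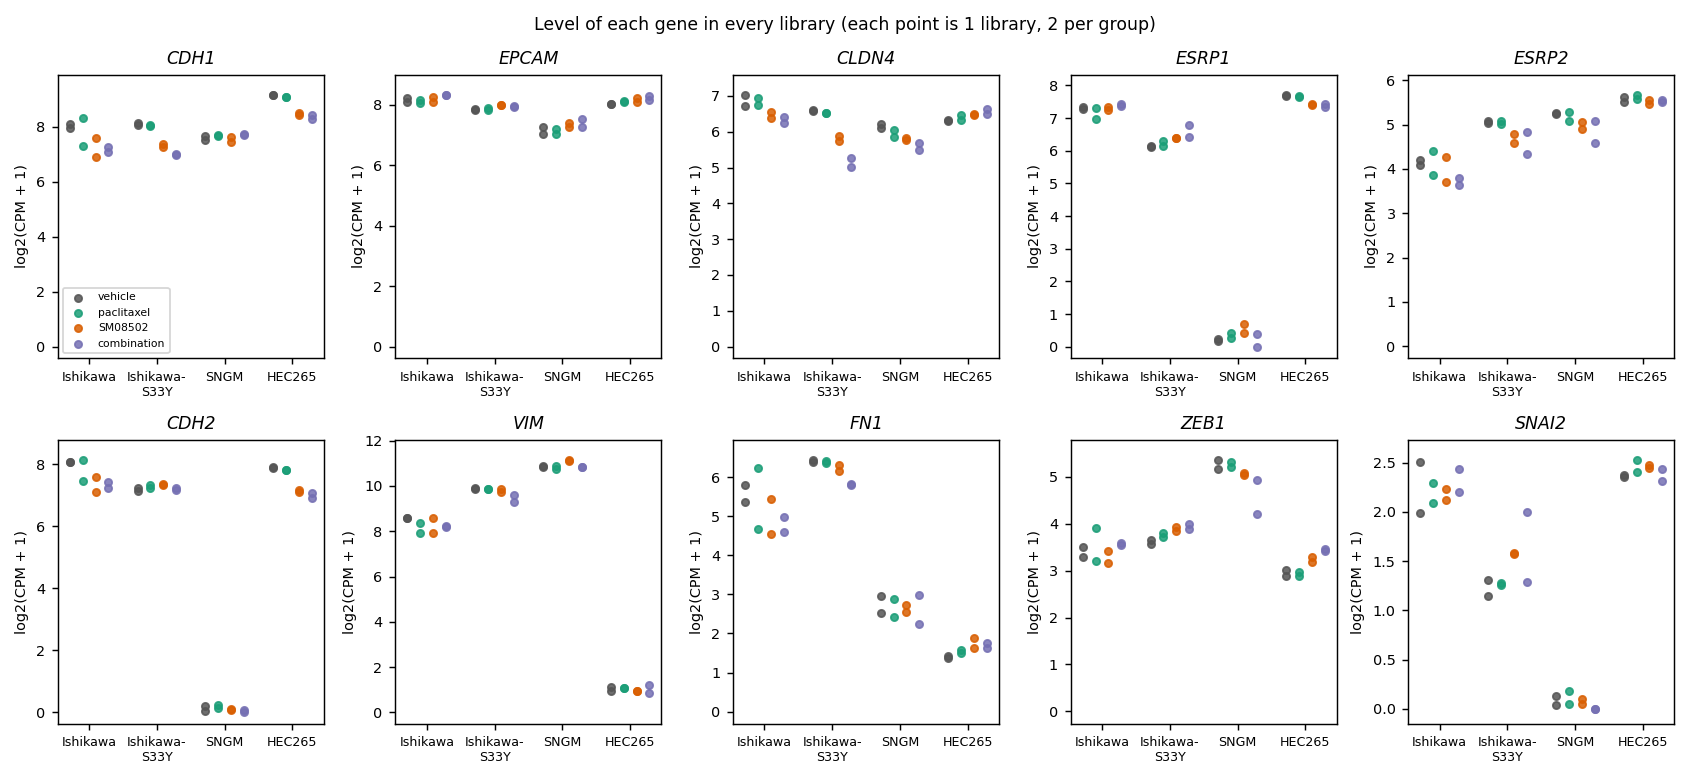
Level of each of the 10 genes as log2(CPM + 1) (vertical axis, scaled per gene) in every library, by line (horizontal axis) and treatment (colour), with 1 point per library and 2 per group. ESRP1, CDH2 and SNAI2 lie near 0 in all SNGM libraries and VIM lies near 1 in all HEC265 libraries, under every treatment.

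Among the junction genes, CDH1 encodes E-cadherin, the core of the adherens junction. On vehicle it stood at 565 and 574 CPM in HEC265, 264 and 277 in Ishikawa-S33Y, 248 and 271 in Ishikawa, and 202 and 182 in SNGM. HEC265 was above every other line without overlap, by a log2 difference of 1.13 ± 0.21 (SE) against Ishikawa (adjusted p = 6.44e-05, limma). With the length score as a covariate that difference was 0.09 (adjusted p = 0.764). Ishikawa and Ishikawa-S33Y overlapped, and SNGM was 0.49 ± 0.21 log2 units below Ishikawa-S33Y (adjusted p = 0.0452), a call lost in 29 of 45 alternative settings. Against Ishikawa, SNGM CDH1 differed by -0.43 (adjusted p = 0.0723). The fit with the length score gives each group its own mean, so its slope comes only from differences between duplicates. On vehicle the score was -2.52 and -2.16 in Ishikawa against -0.28 and -0.39 in HEC265. Line differences with this covariate, here and below, therefore extrapolate that slope. Whether length accounts for them was not tested.

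EPCAM, an epithelial surface adhesion molecule, stood at 299 and 268 CPM in Ishikawa, 257 in both HEC265 libraries, 232 and 225 in Ishikawa-S33Y, and 153 and 129 in SNGM. SNGM was the low line, below Ishikawa by 1.01 ± 0.10 log2 units (adjusted p = 1.91e-08, limma) and below each of the others. HEC265 did not pass against Ishikawa (-0.14, adjusted p = 0.242) or Ishikawa-S33Y (0.17, adjusted p = 0.18). CLDN4, a tight junction claudin, was highest in Ishikawa at 130 and 105 CPM, then Ishikawa-S33Y at 96.4 and 94.5, HEC265 at 79.8 and 77.6, and SNGM at 67.9 and 72.7. The order of its neighbours was weakly resolved. Ishikawa-S33Y against Ishikawa (-0.29, adjusted p = 0.0445) lost its call in 17 of 45 alternatives and HEC265 against Ishikawa-S33Y (-0.28, adjusted p = 0.0464) in 23. HEC265 against SNGM did not pass (0.16, adjusted p = 0.257).

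ESRP1 and ESRP2 encode splicing regulators of epithelial cells, and their order over the lines differed. ESRP1 stood at 209 and 203 CPM in HEC265, 154 and 160 in Ishikawa, and 69.6 and 68.0 in Ishikawa-S33Y. SNGM had 4 and 6 reads of ESRP1, or 0.128 and 0.176 CPM. From pooled reads, ESRP1 was 1348-fold higher in HEC265 than in SNGM (95% exact interval for counting error 733 to 2811), 1023-fold higher in Ishikawa (556 to 2134) and 450-fold higher in Ishikawa-S33Y (244 to 939). Ishikawa-S33Y was 2.28-fold below Ishikawa (log2 difference -1.17 ± 0.13, adjusted p = 3.22e-07, limma), and the groups did not overlap. HEC265 against Ishikawa was smaller (0.39 ± 0.13, adjusted p = 0.0122) and turned to -0.07 with the length score as covariate.

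ESRP2 stood at 44.6 and 48.5 CPM in HEC265, 37.0 and 37.4 in SNGM, 33.1 and 31.7 in Ishikawa-S33Y, and 16.1 and 17.5 in Ishikawa. SNGM, with 10 reads of ESRP1 over both vehicle libraries, thus held ESRP2 at a level that did not pass against HEC265 (adjusted p = 0.172) or Ishikawa-S33Y (adjusted p = 0.39). Ishikawa was the low line, by 0.91 ± 0.19 log2 units against Ishikawa-S33Y (adjusted p = 4.73e-04, limma). That difference was 0.33 (adjusted p = 0.116) with the length score as covariate, SNGM against Ishikawa went from 1.10 to -0.03, and HEC265 against Ishikawa from 1.42 to 0.50 (adjusted p = 0.0542). ESRP2 overlaps NFATC3 in the RefSeq annotation, and NFATC3 was at 84.1 to 179 CPM over the libraries. The strand used in counting is not given in the sources used here, so reads of the pair may have been exchanged.

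CDH2 encodes N-cadherin, the cadherin gained in EMT. It stood at 269 and 268 CPM in Ishikawa, 235 and 238 in HEC265, and 140 and 149 in Ishikawa-S33Y. SNGM had 1 and 5 reads, or 0.0319 and 0.147 CPM. CDH2 was 2929-fold higher in Ishikawa than in SNGM from pooled reads (95% exact counting interval 1345 to 7984), 2577-fold higher in HEC265 (1184 to 7024) and 1579-fold higher in Ishikawa-S33Y (725 to 4305). HEC265, the line with the highest CDH1, had CDH2 at a level that did not pass against Ishikawa (-0.18, adjusted p = 0.316, limma). Ishikawa-S33Y was 1.86-fold below Ishikawa (-0.89 ± 0.16, adjusted p = 7.72e-05).

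VIM, the intermediate filament vimentin, differed between all lines. It stood at 1817 and 1882 CPM in SNGM, 921 and 951 in Ishikawa-S33Y, and 378 and 381 in Ishikawa. HEC265 had 21 and 30 reads, or 0.935 and 1.16 CPM. From pooled reads, VIM in SNGM was 1755-fold (95% exact counting interval 1335 to 2358) above HEC265, in Ishikawa-S33Y 889-fold (676 to 1194) and in Ishikawa 360-fold (274 to 484). All 6 pairs of lines differed under every alternative setting. Ishikawa-S33Y was 2.47-fold above Ishikawa (1.30 ± 0.16, adjusted p = 1.21e-06, limma).

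FN1, the matrix glycoprotein fibronectin, was instead highest in Ishikawa-S33Y, at 83.4 and 85.8 CPM, followed by Ishikawa at 40.2 and 54.7. It stood at 4.79 and 6.83 CPM in SNGM and at 1.69 and 1.58 in HEC265. SNGM, the line with the most VIM, thus had FN1 8.17-fold below Ishikawa (-2.83 ± 0.34, adjusted p = 2.64e-07, limma). HEC265 was 28.6-fold below Ishikawa from pooled reads (95% exact counting interval 22.8 to 36.3). Ishikawa-S33Y against Ishikawa (0.84 ± 0.34, adjusted p = 0.05) was at the threshold, lost its call in 31 of 45 alternatives, and was -0.43 with the length score as covariate. FN1 overlaps ATIC, which was at 76.8 to 233 CPM.

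Of the repressors, ZEB1 was, like VIM, highest in SNGM. It stood at 35.1 and 40.1 CPM in SNGM, 10.8 and 11.5 in Ishikawa-S33Y, 8.82 and 10.4 in Ishikawa, and 6.41 and 7.10 in HEC265. SNGM was above every other line, by 1.87 ± 0.19 log2 units against Ishikawa (adjusted p = 2.36e-08, limma). Ishikawa-S33Y and Ishikawa did not pass (0.21, adjusted p = 0.41), and HEC265 against Ishikawa (-0.45, adjusted p = 0.0495) lost its call in 31 of 45 alternatives. SNAI2, which encodes Slug, stood at 4.10 and 4.17 CPM in HEC265, 2.96 and 4.68 in Ishikawa, and 1.48 and 1.22 in Ishikawa-S33Y. SNGM, the line with the most ZEB1, had 3 and 1 reads of SNAI2. It was 67.7-fold below HEC265 from pooled reads (95% exact counting interval 26.0 to 251). Ishikawa-S33Y was 1.02 ± 0.18 log2 units below Ishikawa (adjusted p = 1.14e-04).

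The next comparison asked what SM08502 alone changed. The drug lowered CDH1 in Ishikawa, Ishikawa-S33Y and HEC265, CLDN4 in Ishikawa and Ishikawa-S33Y, and CDH2 in Ishikawa and HEC265. Of 40 changes (10 genes in 4 lines), 7 passed, all downward. By line these were 3 of 10 in Ishikawa, where 15.2% of all genes passed, 2 in HEC265 (14.7%), 2 in Ishikawa-S33Y (29.1%) and 0 in SNGM (7.86%). In SNGM 2 changes had an unadjusted limma p under 0.05. The median change of all genes on SM08502 was 0.11 in Ishikawa-S33Y and 0.07 or less in the other lines. Counts this small do not set the 10 genes apart from all genes. Averaged over the 4 lines, CDH1, CLDN4 and CDH2 passed, or 3 of 10 genes against 38.5% of all genes. All 3 fell, where 15.8% of all genes fell and 22.6% rose. These averages hide lines without a fall. CDH2 had 6 reads on vehicle and 3 on SM08502 in SNGM, and means of 144 and 163 CPM in Ishikawa-S33Y. Its averaged call was lost with limma voom, a setting described below. CLDN4 in HEC265 had means of 78.7 and 88.3 CPM.

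**Figure D2:**
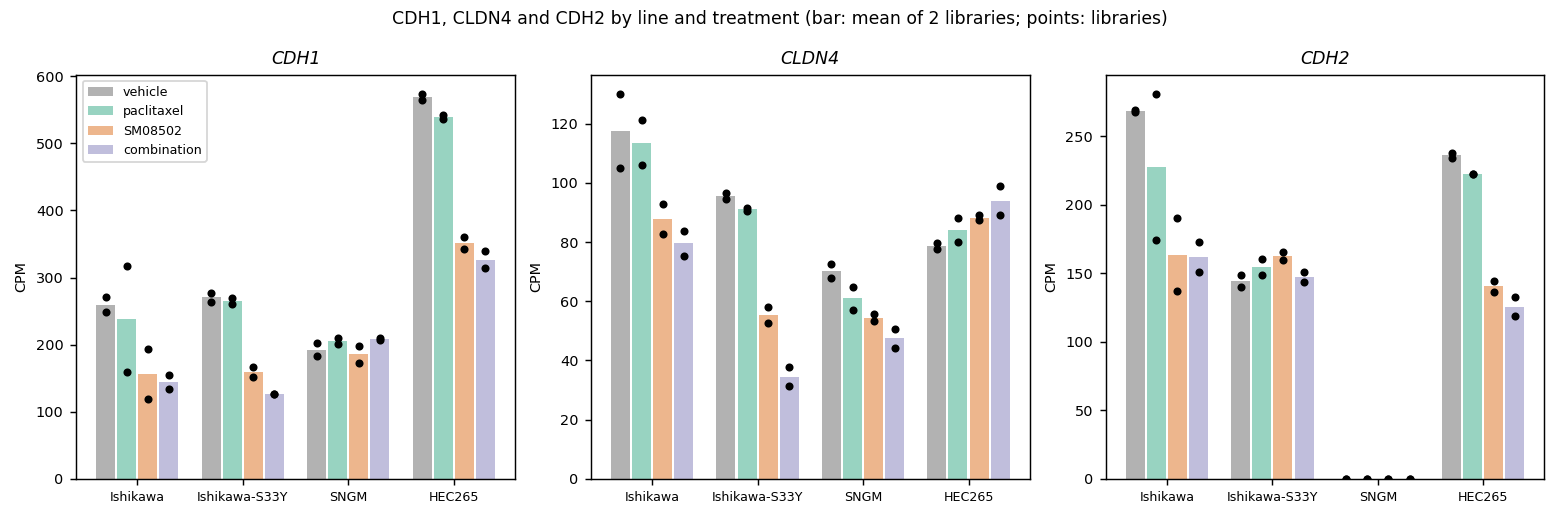
CPM of CDH1, CLDN4 and CDH2 (vertical axes, from 0) by line (horizontal axis) and treatment (colour), with bars for the mean of 2 libraries and points for each library. CDH1 bars drop under SM08502 and the combination in every line but SNGM, CLDN4 drops most in Ishikawa-S33Y, and CDH2 drops in Ishikawa and HEC265 but not in Ishikawa-S33Y.

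In GRCh38.p14, CDH1 lies at chr16:68737292-68835537, CLDN4 at chr7:73830996-73832690 and CDH2 at chr18:27932879-28177130. CDH1 in HEC265 went from 565 and 574 CPM on vehicle to 342 and 361 on SM08502. In Ishikawa-S33Y it went from 264 and 277 to 167 and 152 CPM. In Ishikawa it went from 248 and 271 to 193 and 119 CPM. In none of these lines did treated and vehicle libraries overlap, and the falls were of like size, 1.62-fold, 1.70-fold and 1.66-fold. The log2 changes were -0.70 in HEC265 (adjusted p = 0.0269, limma), -0.76 in Ishikawa-S33Y (adjusted p = 0.00877) and -0.77 in Ishikawa (adjusted p = 0.0155). Each had an SE of 0.21, because the fit estimates 1 spread per gene from all groups. The SM08502 duplicates themselves stood further apart in Ishikawa (193 and 119 CPM) than in HEC265 (342 and 361). In SNGM CDH1 was 202 and 182 CPM on vehicle and 173 and 198 on SM08502, which overlapped (-0.05, 95% interval -0.49 to 0.38). In these bulk samples fewer cells that express a gene and less RNA per cell cannot be told apart.

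The CDH1 calls were lost in 3 to 5 of 45 alternatives per line. With only the libraries of the compared line in the fit, adjusted p was 0.296 in Ishikawa and 0.0618 in Ishikawa-S33Y. The 2 Ishikawa SM08502 libraries, with 193 and 119 CPM, had length scores of -2.09 and -2.88, against -2.52 and -2.16 on vehicle. Without the second SM08502 library the Ishikawa change was -0.42 and not called, and the call was also lost without either vehicle library. Ishikawa-S33Y lost its call without its second vehicle or second SM08502 library, and HEC265 without any 1 of its vehicle and SM08502 libraries. With the length score as covariate the CDH1 change was -0.69 in Ishikawa (adjusted p = 4.05e-04, limma), -0.63 in Ishikawa-S33Y (adjusted p = 4.93e-04) and -0.49 in HEC265 (adjusted p = 0.00837), so all 3 calls held in that fit, which was added after seeing the data.

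CLDN4 in Ishikawa-S33Y went from 96.4 and 94.5 CPM on vehicle to 58.0 and 52.5 on SM08502. In Ishikawa it went from 130 and 105 to 82.6 and 92.7 CPM. In SNGM it went from 67.9 and 72.7 to 55.6 and 53.2 CPM. Vehicle and SM08502 libraries did not overlap in any of these lines. The change was -0.78 ± 0.12 log2 units in Ishikawa-S33Y (adjusted p = 4.57e-05, limma), a call kept in all 45 alternatives. It was -0.41 ± 0.12 in Ishikawa (adjusted p = 0.0194), where the fit to that line alone gave an adjusted p of 0.22 and the call was lost without the first vehicle or first SM08502 library. In SNGM it was -0.36 ± 0.12 (adjusted p = 0.0587), a miss that became a call in 15 of 45 alternatives. HEC265 had 79.8 and 77.6 CPM on vehicle and 87.5 and 89.1 on SM08502, a change of 0.16 that did not pass (adjusted p = 0.425).

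CDH2 in HEC265 went from 235 and 238 CPM to 136 and 145 on SM08502. In Ishikawa it went from 269 and 268 to 190 and 137 CPM. In Ishikawa-S33Y it was 140 and 149 on vehicle and 160 and 165 on SM08502. The first 2 lines fell without overlap, by 1.68-fold (-0.75 ± 0.16, adjusted p = 0.00236, limma) and 1.64-fold (-0.73 ± 0.16, adjusted p = 0.00316), while Ishikawa-S33Y was 0.17 higher and did not pass (adjusted p = 0.445). The HEC265 call held in all 45 alternatives, and the Ishikawa call was lost in 3, among them the fit to that line alone (adjusted p = 0.201) and the fit without its second SM08502 library. SNGM had 1 and 5 reads of CDH2 on vehicle and 1 and 2 on SM08502, so a fall could not be detected there.

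The calls thus covered both the epithelial cadherin and the cadherin gained in EMT, and none of the other 7 genes. VIM in Ishikawa was 378 and 239 CPM on SM08502 against 378 and 381 on vehicle (-0.34, adjusted p = 0.167, limma). In SNGM it was 2257 and 2187 against 1817 and 1882 CPM (0.26, adjusted p = 0.4). EPCAM changes lay between 0.02 and 0.18 in the 4 lines, with a mean of 0.12 that did not pass (adjusted p = 0.0645). ESRP1 changed by -0.29 in HEC265 (adjusted p = 0.161) and 0.27 in Ishikawa-S33Y (adjusted p = 0.135), and ESRP2 by -0.37 in Ishikawa-S33Y (adjusted p = 0.154). In SNGM the fitted change of ESRP1, 0.34 (adjusted p = 0.126), rested on 26 reads on SM08502 against 10 on vehicle. No change of FN1, ZEB1 or SNAI2 passed, and they ran from -0.58 for FN1 in Ishikawa to 0.35 for FN1 in HEC265.

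**Figure D3:**
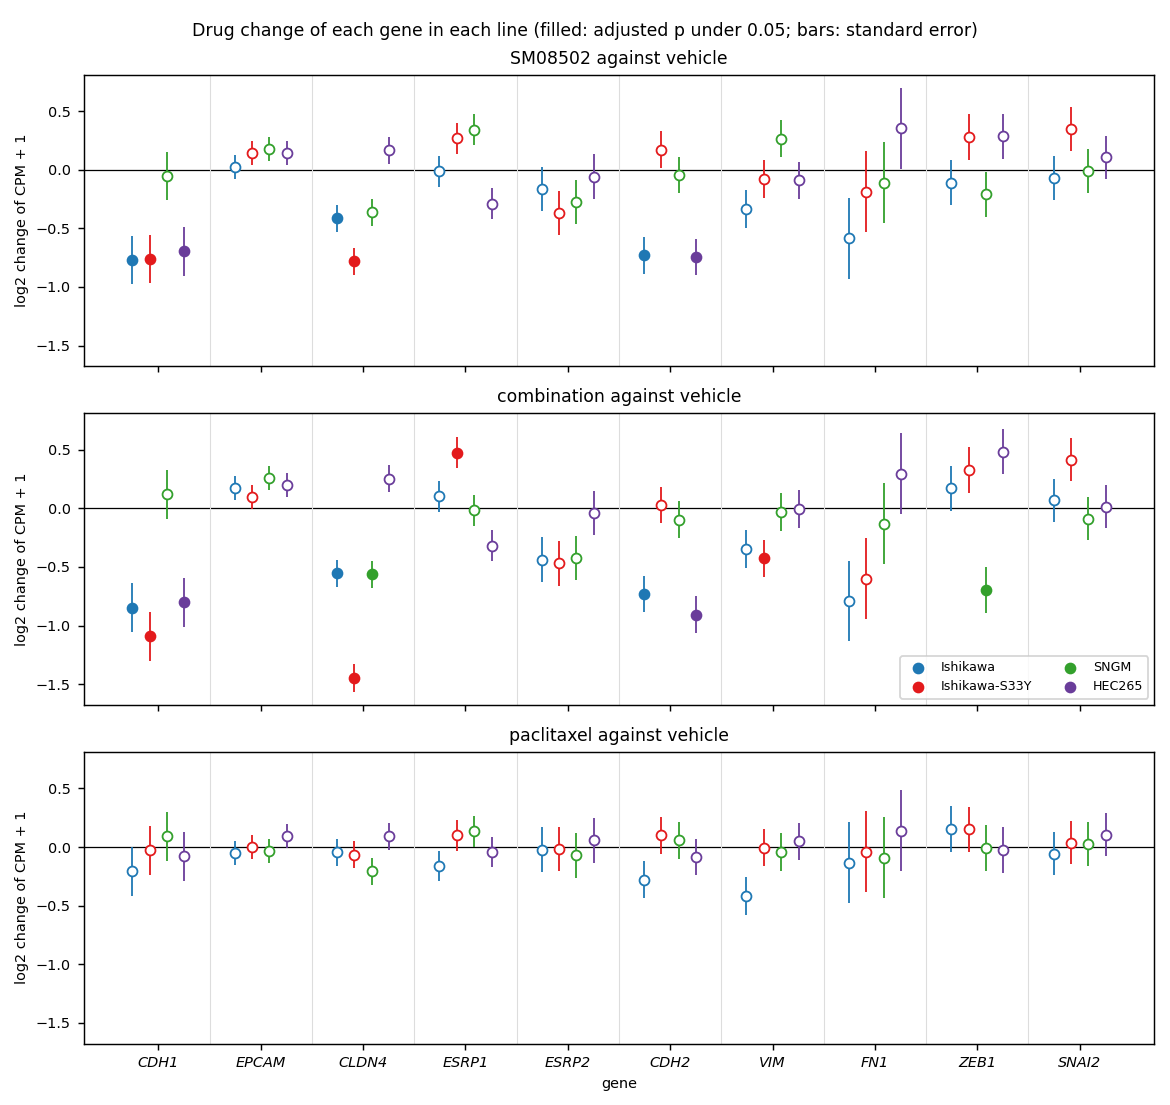
Log2 change of CPM + 1 against vehicle (vertical axis) for each gene (horizontal axis) and line (colour) under SM08502, the combination and paclitaxel (panels), with bars for the standard error and filled points for an adjusted p under 0.05. Filled points number 7 under SM08502, 11 under the combination and 0 under paclitaxel.

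The change on SM08502 was also compared between lines, which tests a difference that a call in 1 line and a miss in another does not. Of 60 such differences, 3 passed. CLDN4, which fell in Ishikawa-S33Y and did not pass in HEC265 (0.16), differed between these lines by 0.94 ± 0.16 log2 units (adjusted p = 0.0015, limma), the only one of the 3 kept in all 45 alternatives. CDH2 in Ishikawa-S33Y, where it had not fallen, differed from its fall in Ishikawa by 0.90 ± 0.22 (adjusted p = 0.0323) and from that in HEC265 by 0.92 ± 0.22 (-0.92 as HEC265 minus Ishikawa-S33Y, adjusted p = 0.0151). Those calls were lost in 9 and 6 of 45 alternatives. The 1 call for Ishikawa-S33Y against Ishikawa compares with 2.43% of all genes, and the 2 for HEC265 against Ishikawa-S33Y with 5.66%. No gene of the 10 passed for SNGM against Ishikawa (3.66% of all genes), HEC265 against Ishikawa (2.56%), SNGM against Ishikawa-S33Y (9.83%) or HEC265 against SNGM (2.03%). The CDH1 change in SNGM did not pass as different from that in the other lines: the difference was 0.72 against Ishikawa (adjusted p = 0.182), 0.71 against Ishikawa-S33Y (adjusted p = 0.135) and 0.64 against HEC265 (-0.64 as HEC265 minus SNGM, adjusted p = 0.324). These differences became calls in 4, 5 and 2 of 45 alternatives. With the length score as covariate they were 0.74 (adjusted p = 0.00812), 0.67 (adjusted p = 0.0108) and -0.53 as HEC265 minus SNGM (adjusted p = 0.0823).

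Paclitaxel alone changed none of the 10 genes detectably. Of 40 changes 0 passed, with a lowest adjusted p of 0.532 (limma), and 1 had an unadjusted p under 0.05. Of all genes, 0.0118% passed in Ishikawa and 0.0176% in SNGM. The share was 0% in Ishikawa-S33Y and 0.00588% in HEC265. The lowest p belonged to VIM in Ishikawa, at 330 and 245 CPM against 378 and 381 on vehicle (-0.42, 95% interval -0.75 to -0.08). The paclitaxel libraries of Ishikawa stood apart from each other: CDH1 was 318 and 159 CPM, CDH2 281 and 174, and FN1 74.0 and 24.5. The first library, higher in all 3 genes, had a length score of -1.33 and the second of -2.92, and its part in the spread was not tested. Outside Ishikawa, CDH1 changed by -0.03 in Ishikawa-S33Y (95% interval -0.46 to 0.40), 0.09 in SNGM (-0.34 to 0.52) and -0.08 in HEC265 (-0.51 to 0.35).

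Under both drugs together, the falls of SM08502 were present, with CLDN4 in SNGM, VIM in Ishikawa-S33Y and ZEB1 in SNGM added, and ESRP1 rose in Ishikawa-S33Y. These comparisons share their vehicle libraries with those of SM08502 alone. Of 40 changes 11 passed, 10 down and 1 up: 3 in Ishikawa (22.8% of all genes), 2 in HEC265 (19.5%), 4 in Ishikawa-S33Y (42.0%) and 2 in SNGM (18.4%).

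CDH1 on the combination was 154 and 134 CPM in Ishikawa, 126 and 127 in Ishikawa-S33Y, and 340 and 314 in HEC265. These were below vehicle without overlap, by 1.80-fold, 2.14-fold and 1.74-fold. The log2 changes were -0.85 (adjusted p = 0.00607, limma), -1.09 (adjusted p = 2.61e-04) and -0.80 (adjusted p = 0.00869). In SNGM CDH1 was 208 and 210 CPM, a change of 0.12 (95% interval -0.31 to 0.55). The Ishikawa-S33Y call held in all 45 alternatives. The Ishikawa call was lost in the fit to that line alone (adjusted p = 0.208) and without its second vehicle or second combination library, and the HEC265 call without either vehicle library or the second combination library.

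CLDN4 on the combination was 37.6 and 31.4 CPM in Ishikawa-S33Y, 83.7 and 75.3 in Ishikawa, and 50.7 and 44.2 in SNGM. In Ishikawa-S33Y that was 2.77-fold below vehicle, the largest log2 change of the 10 genes against vehicle (-1.45 ± 0.12, adjusted p = 1.16e-08, limma). In Ishikawa and SNGM it fell 1.48-fold each (-0.55, adjusted p = 0.00193, and -0.56, adjusted p = 0.00202), calls lost only in the fit to 1 line (adjusted p = 0.102 and 0.0512). HEC265 had 98.8 and 89.2 CPM, above its vehicle libraries, with a change of 0.25 that did not pass (adjusted p = 0.14).

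CDH2 on the combination was 133 and 119 CPM in HEC265 and 173 and 151 in Ishikawa. It was 1.88-fold below vehicle in HEC265 (-0.91 ± 0.16, adjusted p = 2.86e-04, limma) and 1.66-fold in Ishikawa (-0.73 ± 0.16, adjusted p = 0.00223). In Ishikawa-S33Y, with 151 and 143 CPM, it overlapped vehicle (0.03, 95% interval -0.30 to 0.35). The Ishikawa call was lost in the fit to that line alone (adjusted p = 0.153).

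The other combination calls were less stable. ESRP1 in Ishikawa-S33Y was 84.4 and 109 CPM against 69.6 and 68.0 on vehicle (0.48 ± 0.13, adjusted p = 0.00603, limma). The higher value came from the shallow library of 2.99 M reads, and the call was lost without it. ZEB1 in SNGM was 29.6 and 17.4 CPM against 35.1 and 40.1 (-0.70 ± 0.19, adjusted p = 0.016), the lower value came from the shallow library of 1.61 M reads, and the call was lost without it or without the second vehicle library. VIM in Ishikawa-S33Y was 620 and 782 CPM against 921 and 951 (-0.43 ± 0.16, adjusted p = 0.0374), and its call was lost in 8 of 45 alternatives, among them without either vehicle library or the deeper combination library. ESRP2 in Ishikawa-S33Y, at 19.2 and 27.7 against 33.1 and 31.7 CPM, narrowly missed (-0.47, adjusted p = 0.0523). The deeper combination library of SNGM and the shallow one both had 0 reads of SNAI2, which allows up to 0.111 and 1.87 CPM.

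Set directly against SM08502 alone, the combination differed in 1 of 40 values. That was CLDN4 in Ishikawa-S33Y, at 37.6 and 31.4 CPM against 58.0 and 52.5 on SM08502, 1.60-fold lower (-0.67 ± 0.12, adjusted p = 0.0233, limma). Of all genes 0.129% passed in Ishikawa-S33Y, 0% in Ishikawa, 0.253% in SNGM and 0.00588% in HEC265. The call was lost in 6 of 45 alternatives, among them the fits without the shallow combination library, without either SM08502 library and to that line alone. CDH1 differed by -0.33 in Ishikawa-S33Y (95% interval -0.76 to 0.10) and -0.10 in HEC265 (-0.54 to 0.33).

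Lists of related genes were read on SM08502 averaged over the 4 lines, where the median log2 change of all 17011 genes was 0.05, 15.8% of them fell and 22.6% rose. Of 19 tested mesenchymal and matrix genes (of 20 listed), 11 fell and 0 rose, with a median of -0.45. The receptor tyrosine kinase gene AXL fell by 1.12 ± 0.09 (adjusted p = 8.54e-09, limma). The matrix glycoprotein gene TNC fell by 1.04 ± 0.17, and TAGLN, which encodes an actin-binding protein, by 1.02 ± 0.09. Of 18 epithelial regulators and surface genes, 10 fell and 0 rose, with a median of -0.20. They included the surface glycoprotein gene CD24 (-0.61 ± 0.06), the membrane protease gene PRSS8 (-0.45 ± 0.07) and the transcription factor gene OVOL2 (-0.45 ± 0.11). With the length score as covariate, 10 of these 18 genes fell and 3 rose. In that fit 10 of 19 mesenchymal and matrix genes fell and 1 rose, while 16.6% of all genes fell and 29.5% rose.

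**Figure D4:**
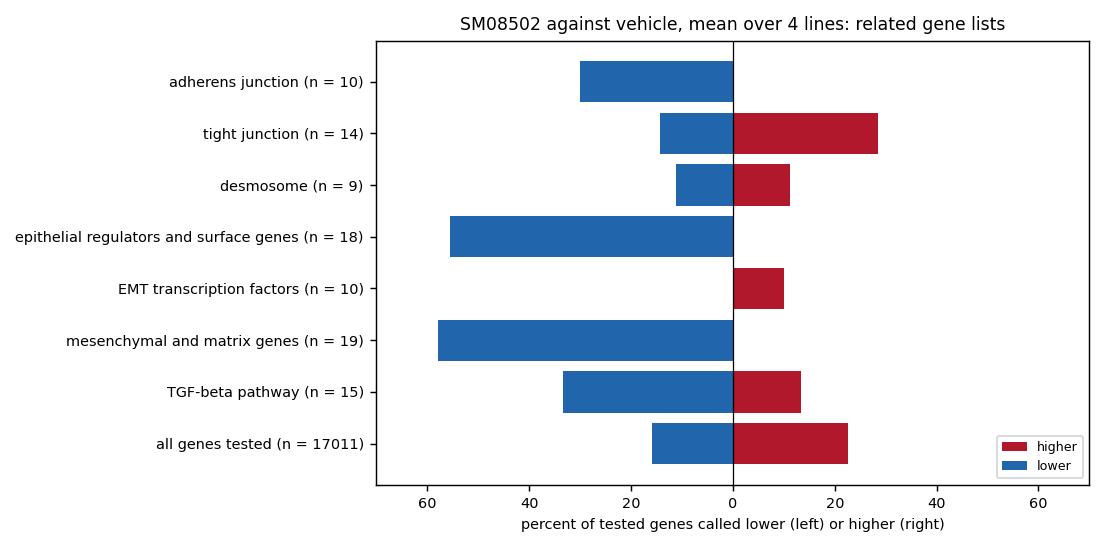
Percent of tested genes called lower (bars to the left) or higher (bars to the right) on SM08502 averaged over the 4 lines, for 7 lists and for all 17011 genes. Mesenchymal and matrix genes (57.9% lower) and epithelial regulators (55.6% lower) extend left of all genes (15.8%), and neither has a bar to the right.

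Of 10 other adherens junction genes, 3 fell and 0 rose (median -0.18), against 15.8% of all genes lower and 22.6% higher. They were VCL (-0.66 ± 0.10), which encodes the actin linker vinculin, AFDN (-0.54 ± 0.08, listed as MLLT4), which encodes afadin, and the adhesion receptor gene NECTIN2 (-0.32 ± 0.07). The catenin genes CTNNA1, CTNNB1 and CTNND1 were not among them. Of 14 tight junction genes 4 rose and 2 fell (median -0.03), and these shares, 28.6% higher and 14.3% lower, lay near the 22.6% and 15.8% of all genes. CLDN3, another claudin gene, fell like CLDN4 (-0.62 ± 0.09), while MARVELD3 (0.38 ± 0.08) and MARVELD2 (0.32 ± 0.06), genes of tight junction membrane proteins, rose. Of 9 desmosome genes, the desmocollin gene DSC3 rose (0.43 ± 0.10) and the plakophilin gene PKP1 fell (-0.38 ± 0.09), which is 11.1% in each direction. Mean PKP1 on vehicle ran only from 0 CPM in SNGM to 1.84 in Ishikawa-S33Y. DSC3 was at 0.232 CPM in SNGM and 0.0445 in HEC265. Both averages thus include lines with hardly a read of the gene.

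Of 10 further EMT transcription factor genes, ZEB2 alone passed on average (0.30 ± 0.11, adjusted p = 0.0424, limma), with a median of 0.02 for the list. That is 10.0% of the list, against 38.5% of all genes. The ZEB2 call was lost with the length score as covariate, where 0 of 10 passed while 29.5% of all genes rose and 16.6% fell. TWIST1 rose in Ishikawa-S33Y, from 10.1 to 17.0 CPM (0.69 ± 0.13, adjusted p = 5.63e-04). Of 15 genes of the TGF-beta pathway, 5 fell and 2 rose (median -0.15), or 33.3% lower and 13.3% higher, against 15.8% and 22.6% of all genes. Those that fell included LTBP1 (-0.59 ± 0.17), which binds latent TGF-beta, the ligand gene TGFB2 (-0.40 ± 0.12) and the inhibitory SMAD gene SMAD6 (-0.36 ± 0.09).

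By line, 10 of 19 mesenchymal and matrix genes fell on SM08502 in Ishikawa, where 8.68% of all genes fell. In Ishikawa-S33Y 5 fell (10.6% of all genes), in HEC265 3 (5.39%) and in SNGM 2 (4.06%), and none rose in any line. Basal levels of the list differed between lines, and a fall of a gene with few reads could hardly be called. On vehicle SPARC stood at 0.0995 CPM in HEC265 and 0.777 in SNGM, against 12.8 in Ishikawa. COL1A1 stood at 6.33 CPM in HEC265 and 1.70 in SNGM, against 134 in Ishikawa and 1145 in Ishikawa-S33Y. The 2 Ishikawa SM08502 libraries stood apart from each other, with a root mean square log2 difference of 0.46 over genes, against 0.09 to 0.19 for the SM08502 pairs of the other lines, beside the length scores of -2.09 and -2.88. Without the second of them the median log2 change of the list in Ishikawa went from -0.75 to -0.57, against 0.04 for all genes. With the length score as covariate 10 of 19 fell in Ishikawa, where 13.3% of all genes then fell. The median of the list in Ishikawa was -0.75 on SM08502 and -0.24 on paclitaxel, where 0 of 19 passed. The difference between the lines' counts was not tested.

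Of 18 epithelial regulators and surface genes, 6 fell and 1 rose on SM08502 in Ishikawa-S33Y, where 10.6% of all genes fell and 18.5% rose. In Ishikawa 4 fell and 0 rose, where 8.68% of all genes fell and 6.50% rose. In HEC265 2 fell and 0 rose (5.39% and 9.27% of all genes). In SNGM 0 fell and 1 rose (4.06% and 3.80%). The 10 that fell on average were thus not called lower in SNGM, and the difference between lines was not tested. Some of the 18 were scarcely expressed in SNGM on vehicle, so a fall of them could hardly be called there. OVOL1 stood at 0.0147 CPM, RAB25 at 0.0918, AP1M2 at 0.730, GRHL2 at 0.973 and OVOL2 at 1.32. Others were well expressed, such as CD24 at 4881 CPM. Without the second SM08502 library, which leaves 1 in that group, the median log2 change of the list in Ishikawa went from -0.27 to -0.25. The median of all genes was then 0.04. Single genes of the lists are given by line. In Ishikawa ACTA2, smooth muscle actin, went from 50.3 ± 7.5 to 8.28 ± 0.96 CPM (mean ± SD, n = 2, log2 change -2.46, adjusted p = 8.24e-06, limma). In Ishikawa-S33Y LOX, which crosslinks collagen, went from 628 ± 33 to 242 ± 9 CPM (-1.37, adjusted p = 1.16e-04). In HEC265 CD24 went from 1179 ± 38 to 643 ± 12 CPM (-0.87, adjusted p = 3.85e-05). In Ishikawa-S33Y DSC3 went from 28.3 ± 0.6 to 69.5 ± 4.4 CPM (1.27, adjusted p = 5.88e-05), the only desmosome gene called higher on SM08502 in any line. On vehicle, Ishikawa-S33Y against Ishikawa had 10 of 19 mesenchymal and matrix genes higher and 4 lower, 7 of 9 desmosome genes higher and 0 lower, and 8 of 18 epithelial regulators lower and 1 higher. Of all genes 20.0% were higher and 28.2% lower in that pair. With the length score as covariate 3 of 9 desmosome genes were higher and 1 lower, while 8 of 19 mesenchymal and matrix genes were higher and 4 lower. In that fit 11 of 18 epithelial regulators were lower and 0 higher, and of all genes 10.1% were higher and 27.2% lower.

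For 4 of the genes, the 3 other genes with the most similar pattern over the 16 group means were found among 12117 genes with a mean log2(CPM + 1) of at least 2. CDH1 was followed by SLC25A51, MYBBP1A and AP3B1, with Pearson's r of 0.96 each. ESRP1 was followed by CTSC, STK26 and MID1IP1 (r of 1.00, 1.00 and 0.99), VIM by SMARCA1, PEG10 and LIX1L (1.00 each) and FN1 by HOXA7, ZNF704 and HCN2 (1.00, 1.00 and 0.99). SMARCA1, like VIM, stood at 56.3 CPM in SNGM vehicle cells and 0.105 in HEC265. The 16 means come from 4 lines, and a gene that is on in some lines and off in others gives a high r with any gene of that pattern.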

How the data were processed

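Total RNA was depleted of ribosomal RNA and made into KAPA libraries, per the labels' protocols. The submitters' processing notes name bcl2fastq, kallisto, STAR and GRCh38, without roles, and the strand of counting is not given in the sources used here. The authors deposited log10(CPM + 1) for 35238 genes in 32 libraries, and the tables of splicing events were not analysed here.

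Values were taken back to CPM, of which 100% were whole reads within 0.1 read. They were tested as log2(CPM + 1), a scale that understates the change of low genes. The plan had assumed deposited log CPM, so the test was kept. Genes with CPM above 1 in at least 2 libraries were kept, leaving 17011. All 32 libraries entered 1 linear model in limma (version 3.58.1, R 4.3.3) that gave each group its own mean, with an intensity trend. Each gene thus had 1 spread shared by all groups. That holds also where duplicates stood further apart, as on paclitaxel and SM08502 in Ishikawa. The model had 16 residual and 4.90 prior degrees of freedom. Tests were two-sided, p was adjusted by Benjamini-Hochberg over 17011 genes per comparison, and a call is an adjusted p under 0.05. The procedure was tested on simulated reads, drawn with the same spread setting in every group. Those reads lacked the unequal spread of the real duplicates, so they do not show how the test behaves with it.

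The 10 genes, the 7 lists and the comparisons were chosen with earlier results of these data known. All 10 genes are named throughout. Of each list at most 3 genes per comparison are named, those with the largest called change. ACTA2, LOX, CD24, DSC3 and TWIST1 were picked from these after their values were seen. Groups come from the line, treatment and replicate in the sample titles. Intervals on pooled reads are exact 95% intervals that cover counting error only.

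Alternatives were no filter, a stricter filter (mean log2(CPM + 1) of at least 2), a pseudocount of 0.1, median re-centring, quantile normalization, no trend, a fit to the compared lines only, a replicate block, limma voom on recovered reads and leaving out each library (the lone library left in its group is then assumed to vary like the others). Added after seeing the data were the length score as covariate, crossed replicate numbers, and leaving out both shallow libraries or the second paclitaxel and SM08502 libraries of Ishikawa. Gene positions and overlaps come from RefSeq GRCh38.p14, not necessarily the annotation behind the deposited counts. VIM also overlaps VIM-AS1 there, CDH2 overlaps CDH2-AS1, and ZEB1 overlaps ZEB1-AS1 and SPTLC1P1.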

Additional observations from a re-analysis of the deposited data

Results flagged for a closer look

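The effect of SM08502 on 2 genes differed between lines by a test of the difference itself. For CLDN4, the change in HEC265 minus that in Ishikawa-S33Y was 0.94 (adjusted p = 0.0015, limma), from 0.16 in HEC265 and -0.78 in Ishikawa-S33Y. For CDH2, the change in Ishikawa-S33Y minus that in Ishikawa was 0.90 (adjusted p = 0.0323), from 0.17 and -0.73. For CDH2, the change in HEC265 minus that in Ishikawa-S33Y was -0.92 (adjusted p = 0.0151), from -0.75 and 0.17. All 3 differences had the same sign in all 45 alternatives. The CLDN4 call was kept in all of them, and the CDH2 calls were lost in 9 and 6, among them a pseudocount of 0.1. SM08502 was given at 149 nM to HEC265, 85 nM to Ishikawa-S33Y and 80 nM to Ishikawa, so dose and line cannot be told apart.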

How the results depend on the processing

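Of 75 called values among 290, 45 were called in all 45 alternatives (32 leaving out 1 library, 13 others) and 71 never changed sign. Of 162 values never called, 91 changed sign somewhere. The stricter filter dropped SNAI2. Replicate numbers did not pair libraries in a consistent way. Correlations of same-numbered deviations between treatments ran from -0.54 to 0.85 in Ishikawa and from -0.59 to 0.78 in SNGM. They ran from -0.06 to 0.13 in Ishikawa-S33Y and from -0.12 to 0.26 in HEC265. Groups of Ishikawa and SNGM thus shared deviations, with numbers that matched in some pairs and were opposed in others. With the replicate block, calls were 7 for SM08502, 0 for paclitaxel, 12 for the combination, 1 for the combination against SM08502, 50 between lines, 5 for SM08502 between lines and 3 averaged, and crossed numbers also gave 5 between lines for SM08502. Leaving out 1 library gave 5 to 8 calls for SM08502 (7 reported), 0 to 2 for paclitaxel (0), 10 to 14 for the combination (11), 0 to 3 for the combination against SM08502 (1), 42 to 51 between lines (50), 1 to 10 for SM08502 between lines (3) and 3 to 5 averaged (3). The length covariate gave 15 for SM08502. Without the second paclitaxel and SM08502 libraries of Ishikawa the combination had 19 calls and the combination against SM08502 had 3, and it had 0 in the fit to the compared lines, with voom and without both shallow libraries. SM08502 between lines had 1 call with a pseudocount of 0.1, 8 with re-centring, 6 in the fit to the compared lines, 6 with voom, 14 with the length covariate, 7 without both shallow libraries and 10 without the 2 Ishikawa libraries. Averaged over lines, 5 genes were called with quantile normalization, with voom and without both shallow libraries. The causes were not tested. CDH2 averaged over lines was not called with voom (adjusted p = 0.269).

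Signs that turned were as follows, in log2 units. With the length covariate, CDH1 became 0.020 for the combination against SM08502 in Ishikawa and -0.59 for Ishikawa-S33Y against Ishikawa, FN1 became -0.43 for Ishikawa-S33Y against Ishikawa, and ESRP2 became -0.030 for SNGM against Ishikawa. For HEC265 against Ishikawa it gave EPCAM 0.026, ESRP1 -0.070 and SNAI2 -0.00207. Re-centring gave EPCAM 0.074 and CDH2 0.031 for HEC265 against Ishikawa. Quantile normalization gave ZEB1 0.059 for that pair and EPCAM -0.072 for HEC265 against Ishikawa-S33Y. Without the 2 Ishikawa libraries, paclitaxel in Ishikawa gave CDH1 0.29 and CDH2 0.067. Leaving out 1 library, these were -0.70 to 0.29 for CDH1 and -0.62 to 0.067 for CDH2, both ends being paclitaxel libraries. CDH1 ran from -0.42 to 0.27 for the combination against SM08502 in Ishikawa and from -0.000329 to 0.12 for Ishikawa-S33Y against Ishikawa, and SNAI2 from -0.15 to 0.37 for HEC265 against Ishikawa.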
